A study of Drosophila melanogaster with 16 samples.

Results

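The anchors of long autosomal loops are the paired ends of chromatin loops on arms 2L, 2R, 3L, 3R and 4 whose left ends lie at least 33 kb apart. They were chosen by chromosome and span alone. The control map of the series held 122 such loops among 313, or 39.0%, with 244 anchors among 626. The same autosomal arms held 112 shorter loops, and X held 34 loops of 33 kb or more. The map was made by Micro-C, in which crosslinked chromatin is cut by micrococcal nuclease between nucleosomes and neighbouring fragments are ligated and sequenced. The embryos were Drosophila melanogaster of the yw control line, with genotype given as WT, at nuclear cycle 14, when the syncytial blastoderm forms cells and the zygotic genome takes over. They were pooled from collections of 45 min at 25 °C and aged for 2 h. The labels give 2 yw samples and 14 samples of edited genotypes that were not analysed here. The lists carry no column per sample, so each loop has 1 value and no replicate error, and the depth behind it is unknown.

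A loop in such a map is a pair of short intervals that touch more often than their surroundings do. In flies, loops are known to hold promoters near distant enhancers or near other promoters, and the DNA elements that do so are often called tethering elements. Insulation boundaries, by contrast, separate neighbouring domains and lower contacts across them. Several developmental gene complexes of the fly hold duplicated genes that share enhancers over long distances.

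Long loops spanned 33.6 to 239.6 kb, with a median of 51.6 kb and quartiles of 40.8 and 75.2 kb. At the short edge, the members just above 33 kb were a loop of 33.6 kb at the Pax gene eyg (value 18.6), a loop of 33.6 kb inside B4 (4.76) and a loop of 34.0 kb at the LIM-homeodomain gene Awh (15.1). The nearest loops left out, all on 3R, spanned 31.2 kb with an anchor at glec (value 6.62), 32.0 kb near Syx1A (4.72) and 32.4 kb near LpR1 (12.1). Arm 2L had 40 of the long loops, 2R had 29, 3L and 3R had 26 each, and chromosome 4 had 1. Per megabase, 2L had 1.71 long loops, 2R 1.15, 3L 0.928 and 3R 0.811, beside 1.44 loops of the same span on X. Long loops made up 58.8% of the loops of 2L and 41.9% of those of 3R.

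The loop value deposited by the authors, a score of the loop caller with no stated scale, ran from 4.26 to 653 with a median of 10.3 and quartiles of 5.66 and 28.9. Short autosomal loops had a median value of 6.79 and a highest value of 73.8, with 400-bp anchors in 74.1% of them. The X loops of the same span had a median of 21.3 and a highest value of 127.5. The width of the anchors moved with the value. Anchors were 400 bp wide in 53 long loops and 800 bp wide in 69. The median value was 36.4 for 400-bp anchors (quartiles 16.5 and 65.2) and 6.1 for 800-bp anchors (quartiles 4.77 and 7.70). Short autosomal loops of these widths had medians of 7.84 and 4.82, and long X loops 40.2 and 7.40. All 20 long loops with a value under 5 had 800-bp anchors, and 34 of the 38 with a value of at least 20 had 400-bp anchors. Why the table holds both widths is not given in the sources used here.

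Value also moved with span inside the class. Its median was 7.89 in the 40 shortest loops, 6.95 in the middle 41 and 37.7 in the 41 longest. The direction was the same within each width: loops with 400-bp anchors had a median value of 18.4 below their median span and 65.2 from it upward, and loops with 800-bp anchors had 4.95 and 7.16. The most extreme values were 653 on 2L and 317 on 2R, both in the centromere-proximal parts of their arms with no gene end at either anchor. Those parts were taken as 2L beyond 22 Mb, 2R before 5.6 Mb, 3L beyond 23 Mb, 3R before 4.2 Mb and all of chromosome 4. They held only 6 long loops, and without these the median value was 10.1. Among the arms, 3L had the highest median value, 25.9, with 400-bp anchors in 69.2% of its loops, and 2R had 7.76, with 27.6%.

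**Figure D1:**
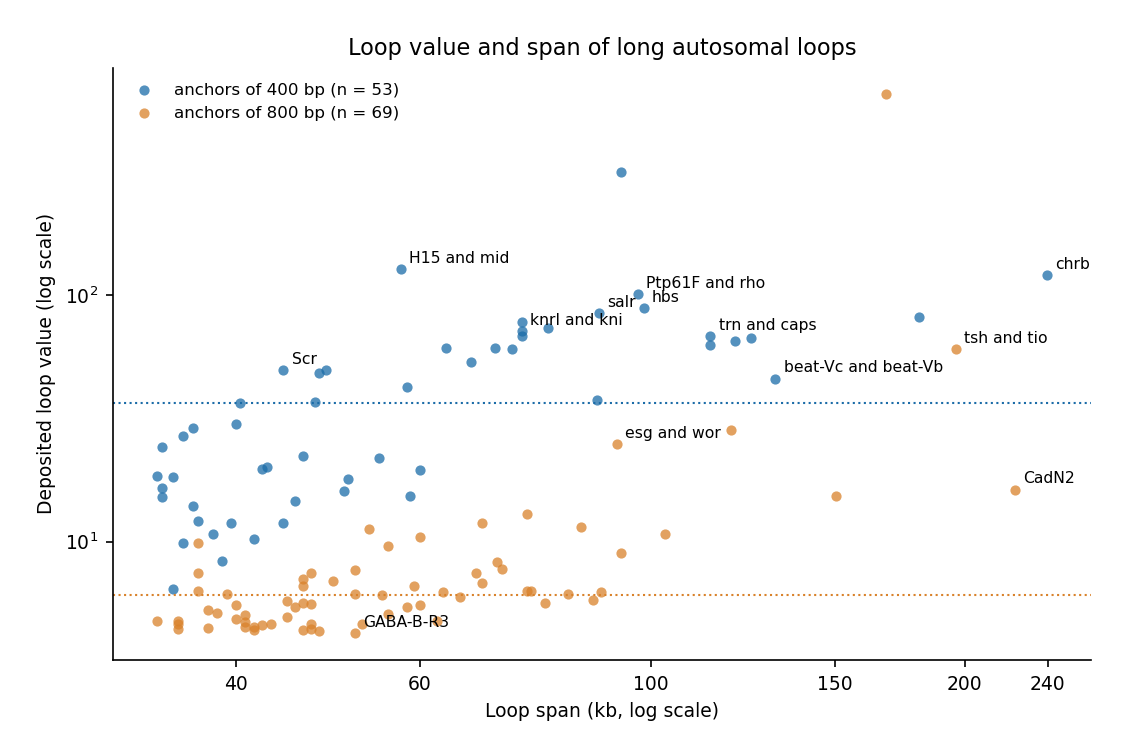
Deposited loop value against loop span for the 122 long autosomal loops, both on log scales; each point is a loop, blue for anchors of 400 bp and orange for anchors of 800 bp, and dotted lines mark the median value of each width (36.4 and 6.1). Points of high value are mostly blue, and loops named after genes at their anchors include H15 and mid (128) and the longest loop, at chrb.

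Anchors lay nearer to gene ends where they were narrow. A gene is placed at an anchor here if either of its ends lies within 1 kb, because the annotation used has no strand and a start cannot be told from a 3′ end. Of the 244 anchors, 94 (38.5%) were within 1 kb of a protein-coding gene end, 78 (32.0%) lay inside a gene body away from its ends, and 72 (29.5%) were intergenic. For 400-bp anchors the share with a gene end was 47.2%, while 27.7% of all 400-bp bins of the autosomal arms had one. For 800-bp anchors it was 31.9%, close to the 30.3% of all 800-bp bins. The share inside gene bodies was 17.9% for 400-bp anchors against 46.3% of bins, and 42.8% for 800-bp anchors against 44.4% of bins. A share above that of all bins was thus seen for the narrow anchors, which also carried the high values. Whether width, value or both go with gene ends was not tested.

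Both anchors had a gene end in 25 loops, 1 anchor in 44 loops and neither in 53. In all 25 of the first kind the ends belonged to different genes. Short autosomal loops divided into 24, 47 and 41 of 112, and long X loops into 10, 13 and 11 of 34, so a gene end at both anchors was found in 20.5%, 21.4% and 29.4% of the 3 classes. These differences were not tested. Loops with both anchors in the body of a single gene were then counted apart. The median value of long loops was 18 with gene ends at both anchors (25 loops) and 8.35 with a gene end at 1 anchor (41). It was 11.9 with none (37) and 5.54 inside a gene (19). Anchors were 400 bp wide in 15 of the 25, 19 of the 41, 15 of the 37 and 4 of the 19. Width thus differed between these groups, and whether their values differ at a single width was not tested.

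Of the 25 loops that joined gene ends, 13 joined members of the same gene family among those assembled here, drawn from 12 families. The families were assembled with these loops in view, so the count describes the map and is no evidence for a preference. The 13 had a median value of 45.9 (range 6.83 to 128) and a median span of 68.8 kb. The other 12, outside the assembled families, had a median value of 15.2 (4.37 to 60.9) and a median span of 47.0 kb. The assembled families need not cover every pair of related genes, so the other 12 may hold some. Anchors of 400 bp made up 8 of the 13 and 7 of the 12.

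The pair of highest value was H15 and mid, tandem T-box genes of segment polarity and heart development. Its anchors on 2L (dm6) covered 5403601 to 5404000, 280 bp from H15, and 5461201 to 5461600, 39 bp from mid, and its value was 128. It spanned 57.6 kb and held the whole of H15, with no gene passed over that lacked an end at an anchor. The other T-box loop, on 3L, joined Doc3 to Doc1 over Doc2, the Dorsocross genes of the amnioserosa. Its value was 9.90 at a span of 36.8 kb. The 2 T-box loops thus lay at opposite sides of the class median.

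Gap genes and trunk zinc-finger genes gave further pairs. The nuclear receptor genes knrl and kni, of which kni is a gap gene, met on 3L over 75.2 kb (value 71.4), from 20620801 to 20621200 and from 20696001 to 20696400. The POU-domain genes nub and pdm2 met on 2L over 68.8 kb (value 6.83), and 2 further loops ran inside this locus. The Sox genes Sox21b and D, the latter a segmentation gene of the head and trunk, met on 3L over 45.6 kb (value 14.7). Between the trunk homeotic gene tsh and its paralog tio on 2L the span was 196.0 kb and the value 60.4. The members of the odd-skipped family on 2L shared the anchor at drm, which met odd over 67.2 kb (value 53.4) and sob over 41.6 kb (10.3). The Snail-family genes esg and wor, which act in imaginal cells and neuroblasts, met on 2L over 92.8 kb (value 24.9).

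Cell-surface genes and further nuclear factors were also joined. The leucine-rich repeat receptor genes trn and caps on 3L, which act in epithelial and tracheal cell contacts, met over 114.0 kb (value 68.1), with anchors at 13114001 to 13114400 and 13228001 to 13228400. On 3R, beat-Vc and beat-Vb, immunoglobulin genes related to the axon guidance gene beat-Ia, met over 131.6 kb (value 45.9), and beat-Va of the same family lay between them. The BTB-domain genes bab1 and bab2, which pattern legs and ovaries, met on 3L over 75.2 kb (value 68.6). The pair danr and dan on 3R, genes of antennal identity, had a value of 7.49 at 47.2 kb. Pairs outside the assembled families included smal and Ddr on 2L (60.7, 73.6 kb) and CG13300 and CG42747 on 3L (36.8, 47.6 kb). Whether the genes of these pairs are related was not examined.

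In a further 11 loops the members of an assembled family were the genes in which the anchors lay or the nearest genes to them. This brought the total to 24 loops of 19 families. At the spalt genes on 2L, the left anchor lay 73 bp from salr and the right anchor lay 1987 bp beyond salm, which the loop passed over (value 84.4, 89.2 kb). At the growth regulators scyl and chrb on 3L, homologs of mammalian REDD1, the left anchor lay 4307 bp outside scyl and the right anchor on the end of chrb. This was the longest loop of the class, at 239.6 kb, with a value of 121. At the rhomboid protease genes on 3L, which release EGF ligands, the left anchor lay 3828 bp from ru and the right anchor on rho, with both inside the phosphatase gene Ptp61F (value 101, 97.2 kb). At the Iroquois homeodomain genes on 3L, a loop from ara passed over caup and ended 5403 bp beyond it (4.42, 47.2 kb). A separate loop ended 39 bp from mirr (value 30.0), and its other anchor lay 31403 bp from caup, the nearest gene. At Pvf2 and Pvf3 on 2L, ligands of the PVR receptor, the anchors lay inside both genes (11.9, 68.8 kb).

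Loops with a gene end at 1 anchor included several of high value at genes of muscle, limb and neural development. At hbs on 2R, an immunoglobulin gene of myoblast fusion, the value was 88.6 and the other anchor lay 5236 bp from chn. At the POU gene vvl on 3L it was 62.7 over 114.0 kb with no whole gene passed over. At dac on 2L, a retinal determination gene, it was 61.2, and the loop passed over Idgf1, Idgf2 and Idgf3. At the Hox gene Scr on 3R it was 49.7, and at the cell death gene hid on 3L it was 48.2. The lowest values of the class were at GABA-B-R3 on 2L (4.26), blo on 2R (4.34), the activin-like ligand gene daw on 2L (4.37), the pair CG43060 and mAChR-B on 3R (4.37) and ara on 3L (4.42). The genes hid, smal, Ddr, CG13300 and CG42747 were chosen for mention after their values were seen.

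In 19 loops (15.6%) both anchors lay in the body of a single gene, against 38 of 112 short autosomal loops (33.9%) and 9 of 34 long X loops (26.5%). These loops had a median span of 40.8 kb and mostly wide anchors, 15 of 19 at 800 bp. All but 5 had values under 9, and the exceptions were Ptp61F (101), 2 of the 4 loops in jing (26.8 and 9), Prosap (11.9) and Antp (9.84). The genes are long: they include the receptor phosphatase gene Lar with 2 loops (7.49 and 5.42), mbl (7.76), which encodes a splicing regulator, the nuclear-anchoring gene Msp300 (5.28), the translational repressor gene pum (4.73) and bt on chromosome 4 (5.04), which encodes projectin. The genes of this group outside the rule for named genes were likewise chosen after their values were seen.

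Genes at the anchors were longer than the genes between them. Of 11725 autosomal protein-coding genes, 99 (0.844%) had an end within 1 kb of a long-loop anchor, and 245 (2.09%) lay wholly between the anchors of at least 1 long loop. The 99 genes at anchors had a median length of 6.24 kb and the 224 passed over without an end at an anchor 1.41 kb, beside 2.10 kb for all autosomal protein-coding genes. Genes with a body over an anchor had a median of 26.2 kb, and longer genes cover more bins. The intervals between anchors were poor in genes: joined where they overlapped, they covered 6.17 Mb, 5.6% of the arms, with 0.397 whole genes per 10 kb against 1.07 over the arms. Genes cut by an edge of these intervals are left out of this figure, and the rule favours short genes. Placed by their midpoint instead, a rule added after seeing the data, 308 genes lay in the intervals, 0.499 per 10 kb, and their median length was 2.03 kb, so the short length of the passed genes was mostly lost.

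Listed developmental genes made up 35 of the 99 genes at long-loop anchors. Of 225 listed developmental genes, 35 (15.6%) had an end at a long-loop anchor beside 0.844% of all genes, 8 more had a body over an anchor without an end near it, and 20 (8.89%) lay wholly between anchors. Short-loop anchors held 29 of the 225 (12.9%) beside 1.1% of all genes (129 of 11725), and over all genes 8 were shared by both classes. The lists were written with earlier results of these data known, and genes of a cluster are not independent, so the shares are descriptions.

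Gap and head genes gave 5 of 15 at long-loop anchors (D, kni, knrl, nub and pdm2), and none of these was among the 7 at short-loop anchors (Kr, cad, croc, ems, hb, slp1 and slp2). Pair-rule genes gave 3 of 12 (drm, odd and sob), with opa under an anchor and ftz between anchors. Short-loop anchors held 5 of the 12, among them odd, sob and opa. The Hox genes and their partners gave 4 of 14 (Scr, bcd, tsh and tio). Antp, Abd-B and pb had anchors in their bodies, zen and zen2 were passed over by the loop from pb to bcd (6.95), and none of the 14 stood at a short-loop anchor. Dorsoventral and mesoderm genes gave 5 of 19 (esg, rho, ths, tup and wor), also with none at short-loop anchors. Short-loop anchors held only 1.1% of all genes, so nothing is read from the absence of Hox and dorsoventral genes there. Over all genes, only 8 stood at anchors of both classes, so nothing is read from the lack of shared gap genes either. T-box and cardiac genes gave 4 of 14 (Doc1, Doc3, H15 and mid) and 3 at short-loop anchors (Doc1, Doc2 and Doc3). A list of other homeobox genes and of retinal determination genes, of which dac has no homeobox, gave 8 of 49 (Awh, ara, dac, eyg, hbn, mirr, tup and vvl) and 7 at short-loop anchors, with ara in both.

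Of 38 signalling genes, 4 (10.5%) stood at anchors beside 0.844% of all genes, and 4 lay wholly between anchors beside 2.09% of all genes. The FGF ligand gene ths, rho, Wnt2 and Pvf3 stood at anchors, while pyr, which encodes the other FGF8-like ligand, jeb, the ligand of the Alk receptor, ru and the BMP ligand gene scw were passed over. Axon guidance and adhesion genes gave 8 of 100 at anchors (DIP-zeta, Fas3, beat-Vb, beat-Vc, caps, hbs, robo2 and trn) and 5 more under anchors (CadN2, Lar, Ptp61F, dpr3 and sns). Short-loop anchors held 3 of these 100 (Dscam1, kek1 and wb).

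The 257 genes listed as housekeeping (ribosomal proteins of cytosol and mitochondria, proteasome and oxidative phosphorylation) gave 0 at long-loop anchors and 2 between them. These were Prosbeta4R1 and Prosbeta4R2 of the proteasome list, both under the loop from CG15395 to Tmtc1. Whether they act as housekeeping genes was not examined. The share of all genes, 0.844%, is itself small, and nothing is read from the 0. Of 336 genes of late tissues, 1 stood at an anchor (Ir48c, which lies inside ths) and 18 lay between anchors, a share of 5.36% against the 2.09% of all genes. They comprised 12 of 199 chemoreceptor and odorant-binding genes and 6 of 137 cuticle and Osiris genes. The rule of whole genes favours short ones, and no share by midpoint was taken for these lists. Clustered genes such as Lcp1 to Lcp4 are not independent, and the difference was not tested.

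**Figure D2:**
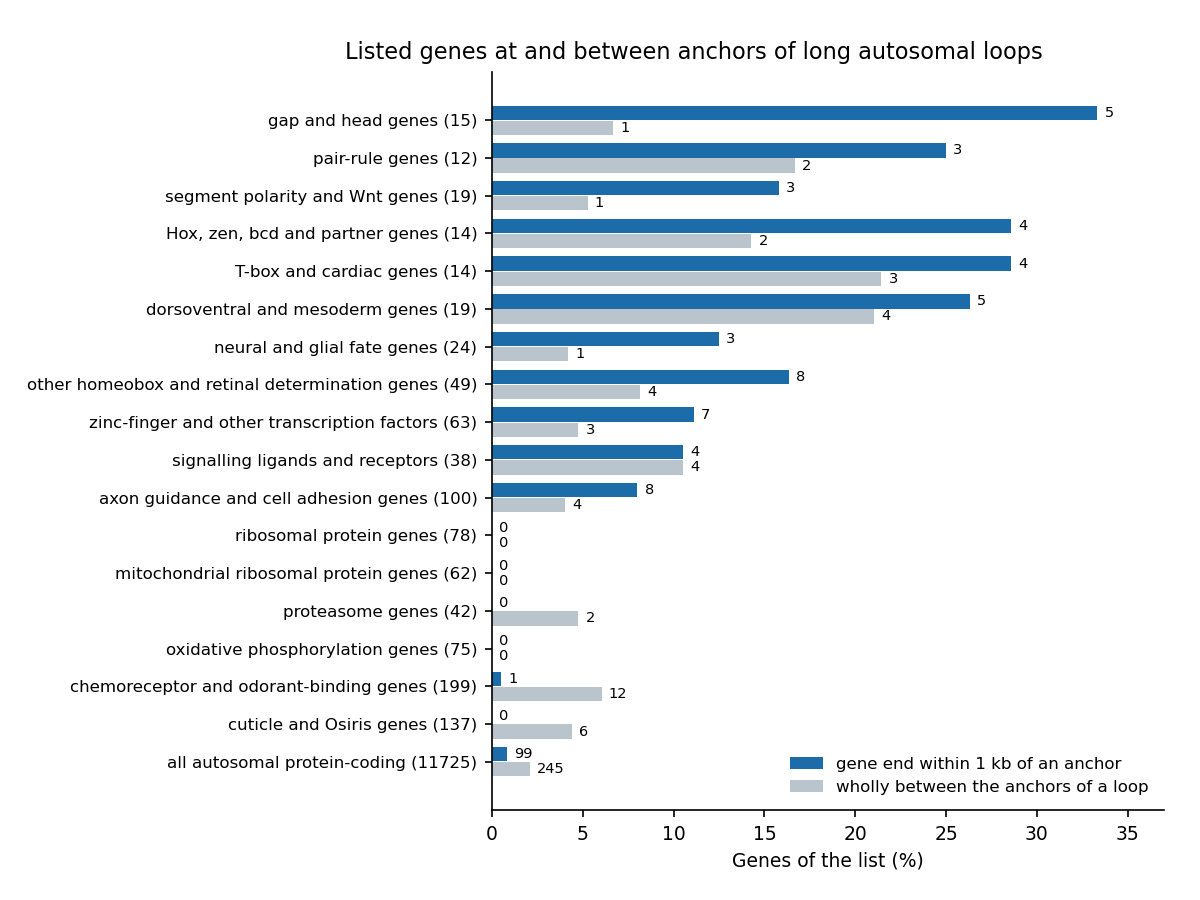
Share of each gene list, in percent, with an end within 1 kb of a long-loop anchor (blue bars) and lying wholly between the anchors of a long loop (grey bars); numbers in parentheses are the autosomal genes of the list and numbers at the bars the genes counted, with all 11725 autosomal protein-coding genes at the bottom (0.844% and 2.09%). Blue bars exceed grey ones in most developmental lists. Grey bars exceed blue ones in the 2 late lists and in the proteasome list, as they do over all genes.

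At least 1 whole protein-coding gene lay between the anchors of 87 loops (71.3%), and 83 loops passed over a gene without an end at either anchor. The median was 1 gene per loop and 22 loops held 5 or more. Short autosomal loops held a gene in 45 of 112, with at most 4. Long X loops did so in 26 of 34, with at most 14. Longer intervals have more room for genes. Per 10 kb between the anchors, the median number of whole genes was 0.243 in long loops, 0 in short autosomal loops and 0.300 in long X loops. The upper quartiles were 0.509, 0.735 and 0.492, and the differences were not tested. The loop that passed over the most ran on 2R from 8407201 to 8558400, 150.4 kb, with a value of 15.3. Its 19 genes included the larval cuticle genes Lcp1 to Lcp4 and the maltase genes from Mal-A1 onward, and a nested loop of 103.2 kb (10.7) passed over 17 of them. The scyl to chrb loop passed over 15 genes, among them Dyro, Fum3, Vha16-3 and Vha16-2. A loop ending in CG9624 on 3R (5.80, 88.0 kb) passed over 13, including the dopamine receptor gene Dop1R1. Loops at B4 and at daw passed over 10 each in 33.6 and 41.6 kb, the latter with the oxidase gene Duox and the cuticle gene Cpr23B.

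Chemoreceptor genes lay under loops of very different value. Or85b and Or85c were passed over by the loop from CG45263 to CG11741 on 3R (18), Or67d by a loop on 3L with no gene end at its anchors (78.2), Obp51a by the hbs loop (88.6) and Gr21a by the loop of lowest value, at GABA-B-R3. Or23a and Gr23a were passed over by the loop from CG15395 to Tmtc1 on 2L (5.98), and Or67a and Ir67a by 3 overlapping loops on 3L with values of 4.75 to 6.24. Or85b with Or85c, Or23a with Gr23a and Or67a with Ir67a thus lay under the same loops.

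**Figure D3:**
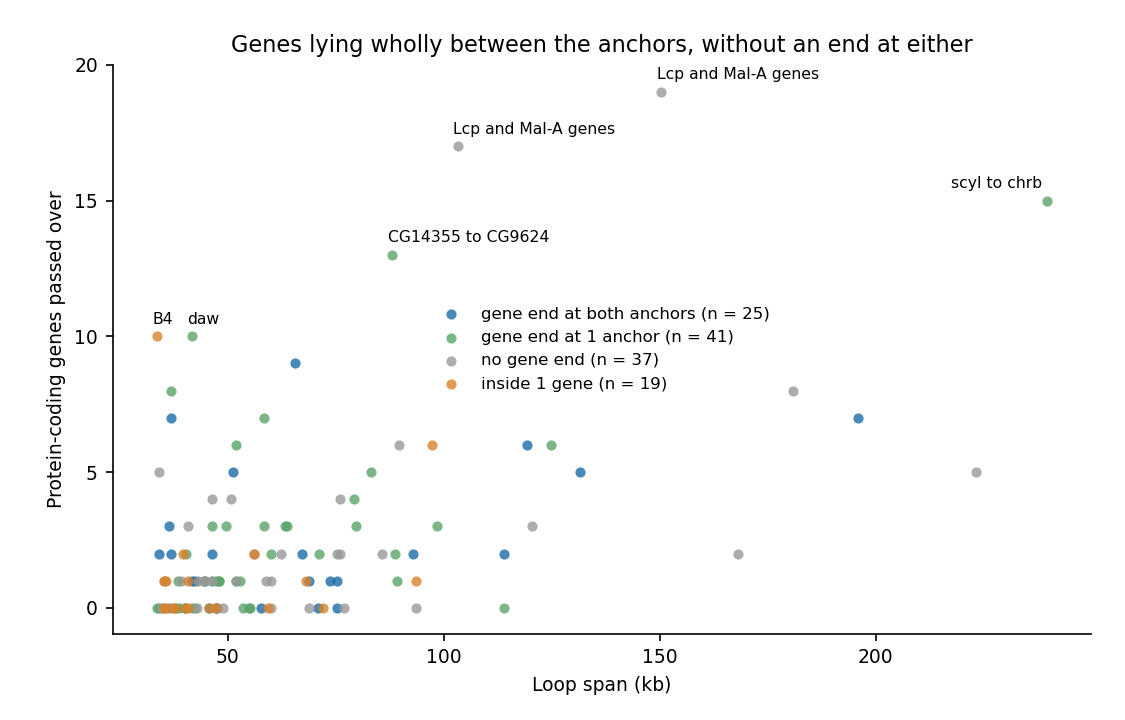
Number of protein-coding genes lying wholly between the anchors of a long loop without an end at either, against loop span in kb; each point is a loop, coloured by whether gene ends lay at both anchors, 1 anchor or neither, or both anchors lay inside a gene. The 2 highest points are the nested loops over the Lcp and Mal-A genes (19 and 17), and most loops lie at 3 or fewer.

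Some loops shared anchors. With anchors within 2 kb of each other joined, a distance chosen after seeing the data, 88 loops stood alone, and the others fell into 4 groups of 2 loops, 6 of 3 and 2 of 4. In 4 loci, 3 anchor positions were joined pairwise. At tsh and tio the middle position lay 912 bp from CG11629. It met tsh with a value of 60.9 and the tio side with values of 67.2 and 28.4, and tsh met tio with 60.4. At pyr and ths on 2R, 80.0 kb in all, the positions were 1063 bp outside pyr, 817 bp outside ths, and inside ths beside Ir48c. The outer pair had the highest value, 73.6, against 11.9 from pyr to ths and 16.5 across ths. At scyl and chrb, 240 kb in all, the outer pair again had the highest value, 121, against 81.6 and 42.4 for the loops to the middle position, 2006 bp from CG7560. At jing, a zinc-finger gene of border cells and neurons that covers 119.8 kb on 2R, 4 loops had values of 6.63, 5.59, 9 and 26.8, and the shortest had the highest.

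The other connected groups held no closed triangle. The drm group had values of 53.4 and 10.3. At nub and pdm2 the 3 loops had values of 19.5, 6.83 and 6.31. At Psc and Su(z)2 on 2R, paralogous genes of the Polycomb group, loops from Psc (10.4), from Su(z)2 (19.6) and from a position between the genes (9.65) ended 2295 to 5095 bp from CG13323. Loops near Gfat1 and CG42402 on 3R, in the centromere-proximal part, had values of 12.9, 11.5 and 6.11. Loops around Tmc on 3L had 6.24, 6.14 and 4.75.

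**Figure D4:**
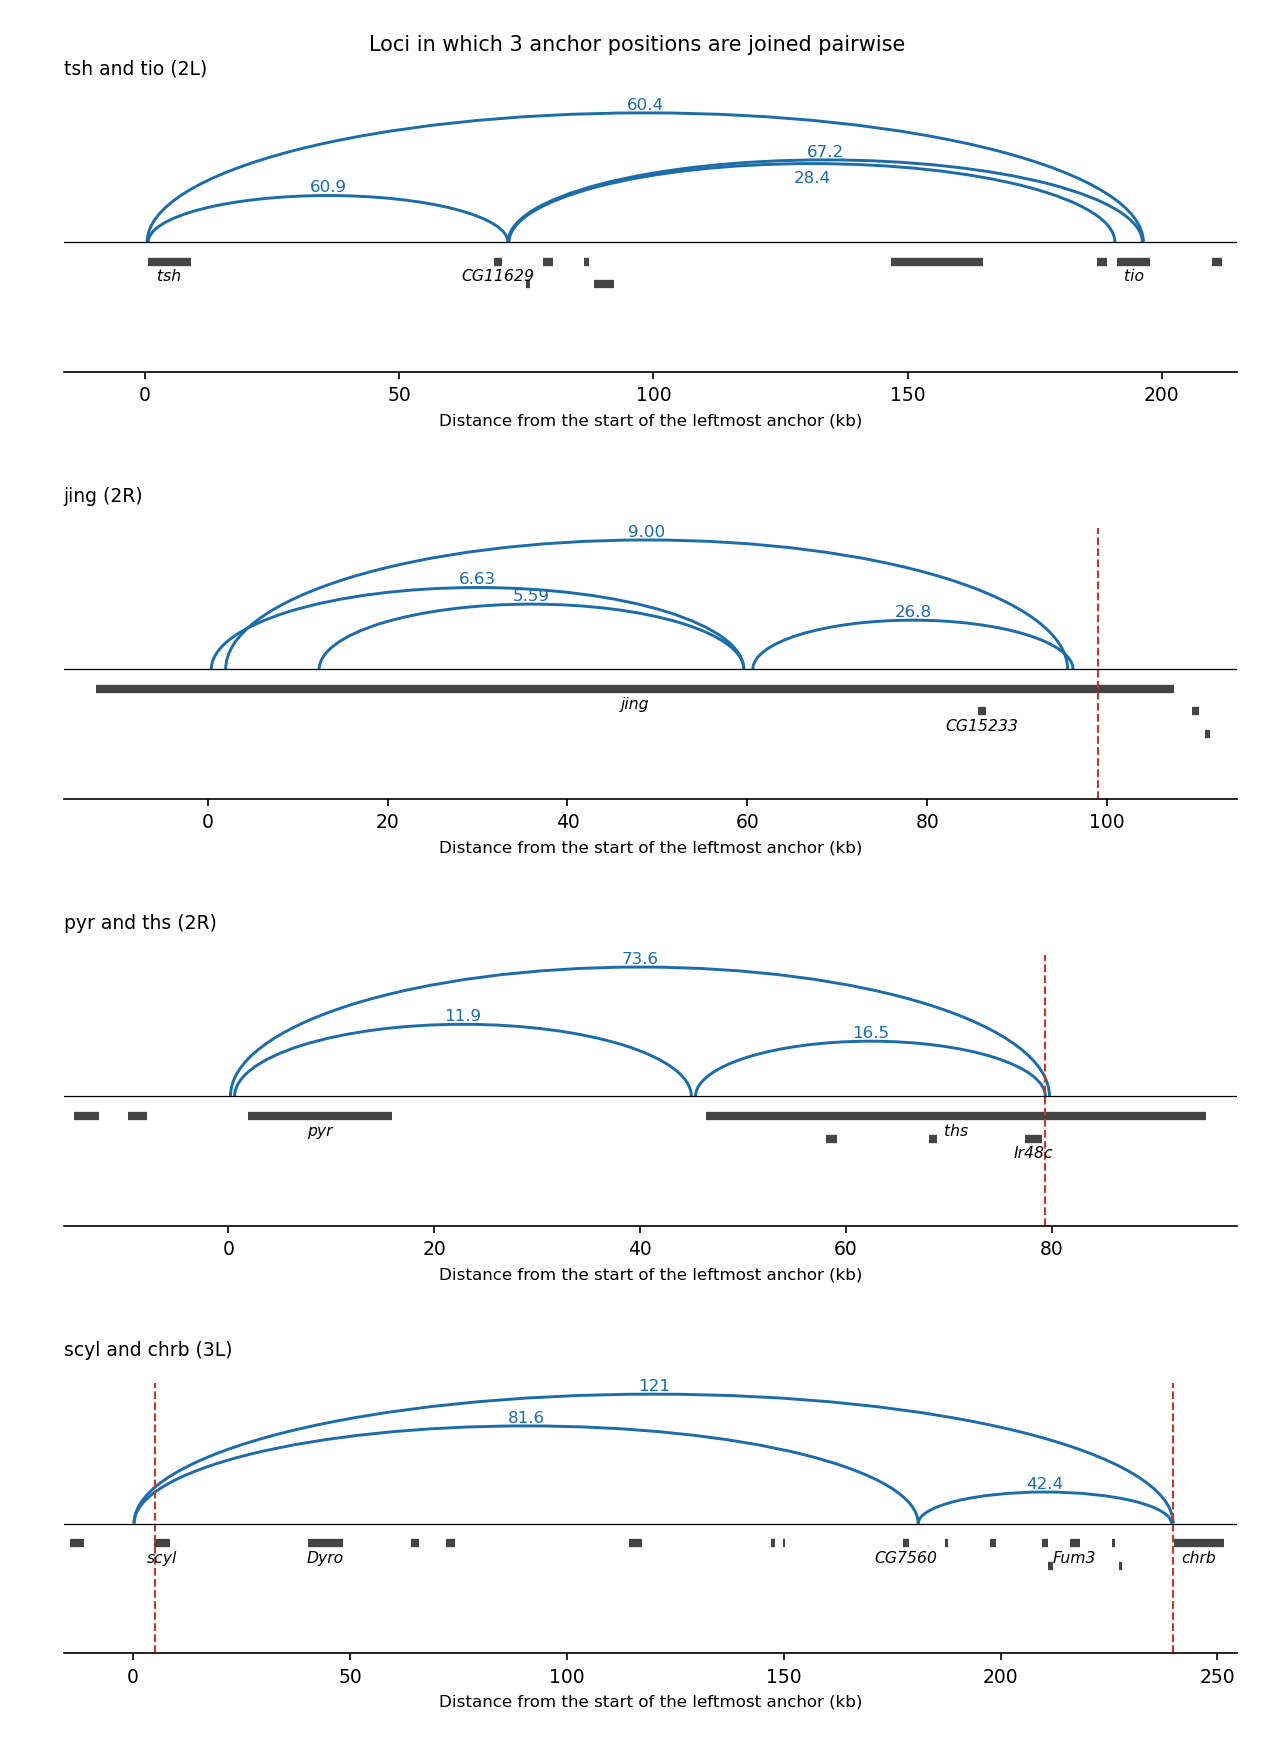
Maps of the 4 loci in which 3 anchor positions were joined pairwise, drawn to scale along the x axis in kb from the leftmost anchor; arcs are long loops labelled with their value, grey bars are protein-coding genes (a selection is named) and dashed red lines are insulation boundaries. The outer arc has the highest value at pyr and ths (73.6) and at scyl and chrb (121), but not at tsh and tio or at jing.

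Few boundaries lay between the anchors. The joined intervals between anchors, 5.6% of the autosomal arms, held 17 of the 1557 autosomal boundaries. Of the 122 long loops, 15 (12.3%) had at least 1 of the deposited insulation boundaries wholly between the anchors, beside 5 of 112 short autosomal loops (4.46%) and 3 of 34 long X loops (8.82%). Longer intervals have more room for a boundary, and the differences were not tested. The 15 loops held 17 different boundary entries with a median strength of 1.58, beside 1.64 for the 1557 autosomal entries. The 3 entries in a centromere-proximal loop of 3R all had a strength of 3.70, and the 2 in a loop of 2R both had 4.41. Whether such neighbouring entries are separate boundaries was not examined. None of the 25 loops between gene ends and none of the 19 loops inside a gene had a boundary between the anchors. The list keeps boundaries above a minimum strength, so a loop without a listed boundary may still cross a weaker one.

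Several of these boundaries lay beside an anchor. At dac (strength 1.68), at Fas3 (1.34) and at the Ir48c end of the outer ths loop (1.29) the boundary occupied the bin next to the anchor, and at RapGAP1 (1.41) it lay 0.4 kb away. With boundaries required to be at least 2 kb from both anchors, 11 loops were left. These included the 2 loops that begin beyond scyl, whose boundary (1.31) lay 4.4 kb from their shared left anchor, the Scr loop with boundaries of 1.43 and 1.58 on the sides of ftz, the CadN2 loop over CadN (1.33) and the 2 loops that end near CG13323 and cross the boundary at Su(z)2 (1.51). The strongest lay in centromere-proximal loops, at 4.41 on 2R, 3.70 on 3R and 3.15 on 2L. With only boundaries of at least the median strength counted, 4 of the 15 loops still had one.

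Of 244 anchors, 9 overlapped a boundary and 20 (8.20%) lay within 1 kb of one, and the median distance over all anchors was 38.6 kb. Here too the widths differed. Of 106 anchors of 400 bp, 8 (7.55%) overlapped a boundary against 0.566% of all 400-bp bins, and of 138 anchors of 800 bp, 1 (0.725%) did against 1.12% of 800-bp bins. Within 1 kb, 12.3% of 400-bp anchors had a boundary against 3.82% of all 400-bp bins, and 5.07% of 800-bp anchors against 4.35% of 800-bp bins. Anchors that overlapped a boundary included those at mid (1.31), odd (1.29), chrb (1.29), Su(z)2 (1.51) and the left anchor inside Ptp61F (1.69). A total of 99 long loops lay wholly within a domain between neighbouring boundaries. Counted once per loop, so that a domain with several loops enters several times, these domains had a median size of 161.6 kb. The loop covered a median of 32.8% of its domain. Short autosomal loops had 91.6 kb and 18.7%, and long X loops 153.6 kb and 39.8%. A domain must be larger than the loop it holds, so longer loops have larger domains in part by construction.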

How the data were processed

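Per the labels' protocols, yw embryos were crosslinked with formaldehyde and with DSG and EGS, staged by hand, digested with micrococcal nuclease and sequenced from both ends (50 bases each). The submitters' processing notes name BWA 0.7.17 and dm6. Pooling of the 2 control samples and the steps to contact maps are not stated in what was used here. Loop value and boundary strength are scores deposited by the authors, and the loop columns are those of SIP, a loop caller, per the file headers. The probability of enrichment is a fraction deposited by the authors and was not used to select loops. No read counts were used.

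Starts were converted to 1-based coordinates. Repeated boundary entries (2034) were reduced to 2020. Genes came from RefSeq Release 6, the assembly of dm6, without strand, exons or sequence, so the 2 planned descriptions by transcription start and by promoter motif were not run and no sequence is shown. A skipped gene had both ends inside the interval from one anchor's inner edge to the other's. Background bins tiled the autosomal arms at each anchor width. Processing used python 3.11.15, pandas 2.3.3, numpy 2.4.6 and networkx 3.6.1, with interval routines tested on a small simulated set.

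The members, the 17 gene lists and the families were chosen with earlier results of these data known. The rule for named genes took those at or under anchors of the top 15 loops by value, the 10 longest, those with a boundary between or a shared anchor, those with listed genes at both anchors, the 5 that skip most, the 5 of lowest value, and the 3 on each side of 33 kb, with listed genes among those skipped. Genes named for a family or for lying around a loop inside a gene, and other genes beyond this rule, were chosen after their values were seen. Scores, counts and shares are descriptions with no test, since a single list has no replicates.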

Additional observations from a re-analysis of the deposited data

How the results depend on the processing

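Of 50 recomputed values, 36 stayed within 1.5 times the reported count (for the median value, within the interquartile range) and 14 moved further. When gene ends had to fall within the anchor itself, genes at anchors went from 99 to 37, loops with gene ends at both anchors from 25 to 4 and loops with none from 53 to 90. Within 500 bp, 16 loops had gene ends at both. Among loops of at least the median value, 53 genes were at anchors, 23 loops had no gene end, 45 held a whole gene and 3 lay inside a gene. With a minimum span of 40 kb, 11 loops lay inside a gene against 19. Loops with a boundary between the anchors numbered 15, but 4 with boundaries of at least the median strength of 1.64 and 23 between the outer edges. Anchors within 1 kb of a boundary numbered 20, but 8 at that strength and 9 by overlap. The median value was 36.4 with 400-bp anchors only, against 10.3. Fewer loops, genes or boundaries entered most of these counts by construction. Counts of listed developmental genes at anchors (35) and of loops joining listed genes (13) stayed within 1.5 times in the 3 alternatives run for them. These 13 loops had a gene of any list at both anchors and are not the same set as the 13 family loops. They include ths with Ir48c and leave out danr with dan. The count of family loops was not recomputed. The alternatives by anchor width, by genes at anchors left out, by 2 kb from boundaries, by gene midpoint and for joining anchors were added after seeing the data. No paired analysis was possible because the lists hold no column per sample. Depth is unknown, so a loop missing from the list is not shown to be absent.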

Other observations

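Long noncoding RNA genes also stood at long-loop anchors. Of 1718 annotated on the autosomes, 37 (2.15%) ended or began within 1 kb of one, beside 0.844% of protein-coding genes, and 1 of 202 microRNA genes did. At the left anchor of the scyl to chrb loop, where no protein-coding gene end lay within 1 kb, 4 such RNA genes had an end (lncRNA:CR44713, lncRNA:CR44714, lncRNA:CR44715 and lncRNA:CR44717). The right anchor of the salr loop, 1987 bp from salm, had lncRNA:CR46454, and the right anchor of the Scr loop had lncRNA:CR45559. These genes were chosen after their values were seen, and noncoding genes that overlap or neighbour coding genes share their position.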
